A study of Mus musculus with 9 samples.

Results

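A set of 10 genes that silence transposons or restrict LINE-1 retrotransposons were followed in the testes of *Piwil4* knock-in mice. They were taken by gene symbol from the 22337 genes of the expression table, and all 10 were listed. Tex15, Spocd1 and Morc1 act with the nuclear piRNA pathway, Trim28, Setdb1 and Ehmt2 act on histone H3 lysine 9 methylation (H3K9), and Tex19.1, Mov10, Samhd1 and Trex1 restrict LINE-1 elements. RNA from whole testes of 3-week-old mice was sequenced in 3 samples of each genotype, wild-type, heterozygous (*Piwil4* WT/R264W) and homozygous (*Piwil4* R264W/R264W). In the knock-in allele, made by CRISPR-Cas9 in C57BL/6 zygotes, an arginine of the PIWI protein PIWIL4 is replaced by tryptophan, and every cell of the animal carries it. WT/R264W testes carry 1 copy and R264W/R264W testes carry 2. The labels give no other allele or agent, and they do not say whether testes of a group came from separate animals, so p-values measure only the spread between these samples.

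In male germ cells, PIWI-interacting RNAs guide nuclear PIWIL4 to young transposons, and DNA methylation is then laid down there. SPOCD1 and TEX15 link PIWIL4 to the methylation machinery, while the KRAB zinc finger corepressor TRIM28 recruits SETDB1 to other retroelements for H3K9 trimethylation. Restriction factors act later, on LINE-1 RNA, protein or reverse-transcribed DNA. The paper that reported these data places mouse PIWIL4 in gonocytes until soon after birth, and in a few adult spermatogonia. Mice of 3 weeks are past that early window. They are still in their first round of sperm formation, in which round spermatids are appearing.

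Each testis had 18.0 to 24.3 M estimated counts in all. A count of 0 would have allowed up to 3 counts, which make 0.122 to 0.172 CPM (counts scaled to library size, here with TMM factors), for counting error only. The stage of each testis was given by a stage score, which averages log2 CPM over 20 genes of round spermatids, none of them among the 10. The score was 6.27, 4.23 and 3.41 in wild-type replicates 1, 2 and 3. It was 5.54, 5.08 and 2.91 in the WT/R264W testes and 4.30, 4.95 and 6.14 in the R264W/R264W testes. The genotypes overlapped widely, with means of 4.64 ± 1.47, 4.51 ± 1.41 and 5.13 ± 0.931 (SD, n = 3 each). Piwil4 itself was low, with a mean of 1.67 CPM in wild-type, 1.76 CPM in WT/R264W and 1.20 CPM in R264W/R264W testes. Its counts do not show which allele was transcribed.

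Levels of the 10 genes were compared per transcript length, as FPKM (fragments scaled to transcript length and library size). All 10 passed the filter on low counts that left 15771 genes over the 9 testes. The 2 highest were corepressors. Trim28 (ENSMUSG00000005566) had a mean of 175 FPKM over the 9 testes and Ehmt2 (ENSMUSG00000013787), which encodes the H3K9 methyltransferase G9a, had 105 FPKM. Both stood in the upper tail of the 14154 genes with a mean of at least 0.5 FPKM, of which 97.3% and 94.2% were lower. Tex15 followed with 43.0 FPKM and Setdb1 with 30.7 FPKM.

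Of the restriction factors, Tex19.1 had 12.8 FPKM, Mov10 10.5 FPKM and Samhd1 8.02 FPKM. Morc1 had 3.78 FPKM, and Trex1 (1.84 FPKM) and Spocd1 (1.24 FPKM) were lowest, with 17.1% and 11.5% of expressed genes below them. Across the 9 testes, the ranges of neighbours in this order overlapped for Tex15 and Setdb1, Tex19.1 and Mov10, Mov10 and Samhd1, and Trex1 and Spocd1. Even so, Tex15 exceeded Setdb1 and Tex19.1 exceeded Mov10 in 9 of 9 testes, and Mov10 exceeded Samhd1 and Trex1 exceeded Spocd1 in 8 of 9. All other neighbours were apart. Tex19.2, the paralog of Tex19.1, had a mean of 22.1 FPKM, above Tex19.1 in mean level, and their transcripts shared no window of 150 bases. The share that arises from germ or somatic cells cannot be told from these data, and in whole testes fewer cells of a type and less RNA per cell cannot be told apart.

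The summed level of the 10 genes ran from 1380 to 1550 CPM, most of it from Trim28 and Ehmt2. The SD of log2 CPM over the 9 testes was smallest for Trim28 (0.11) and Setdb1 (0.12) and largest for Mov10 (0.27), while the median over the tested genes was 0.21. Mov10 and Trex1 (0.26) varied more than that median, and Tex15, Spocd1, Morc1 and Ehmt2 lay close to it, at 0.20 to 0.22. Trex1 has to be read with care, because 90.7% of the 150-base windows of its transcript are also in Atrip, an overlapping gene on the same strand, and its estimated counts were not whole. Setdb1 shares 1.18% of its windows with other genes and overlaps Cers2 on the opposite strand, as Trim28 does Zbtb45. The strand setting of the counting is not given in the sources used here.

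**Figure D1:**
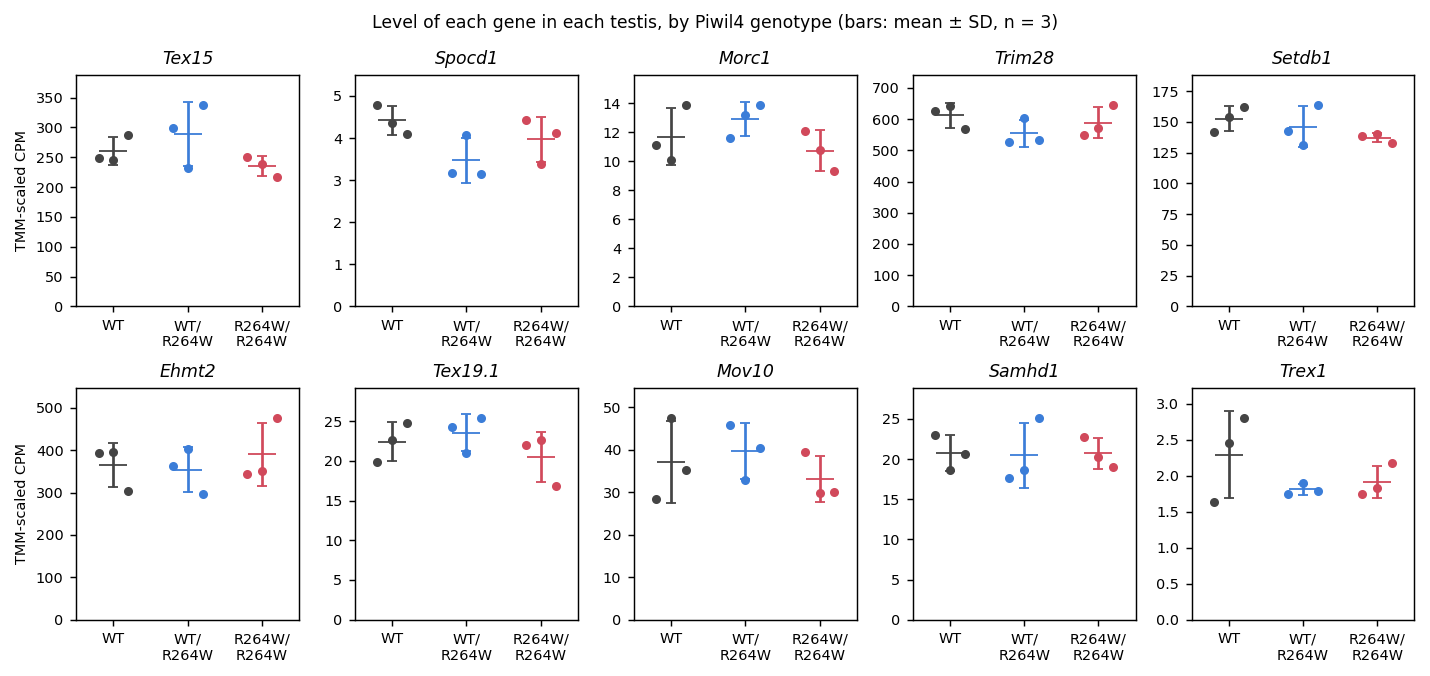
Level of each gene in TMM-scaled CPM (vertical axis, from 0) in each testis by *Piwil4* genotype, with points for replicates 1 to 3 from left to right and bars for the mean ± SD (n = 3). Setdb1 was lower in all R264W/R264W testes (133 to 140 CPM) than in the wild-type testes (142 to 162 CPM), though these groups overlapped in FPKM. Spocd1 was lower in all WT/R264W testes than in the wild-type testes.

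The genotype comparison asked whether the silencing and restriction genes themselves changed with the R264W allele. Of the 10, 0 were called between R264W/R264W and wild-type testes at an adjusted p under 0.05 (quasi-likelihood test of edgeR, Benjamini-Hochberg adjustment), beside 0% of all 15543 genes tested. DESeq2 called 0 of the 10 and 1 other gene, Fras1, which was named after its values were seen. At an unadjusted p under 0.05, 0 of the 10 passed with either tool, beside 1.26% of all genes with edgeR. Of the 10 log2 fold changes 9 were negative, against 52.0% of all genes, with a median of -0.14 against -0.005. DESeq2 gave 8 negative of 10. The 10 values come from the same testes and are not independent, and this count was not tested. With edgeR, 6 of 10 were negative for WT/R264W against wild-type, against 55.1% of all genes. For R264W/R264W against WT/R264W it was 5 of 10, against 48.6%.

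Setdb1 (ENSMUSG00000015697, chromosome 3 in GENCODE M21), which encodes an enzyme of H3K9 trimethylation, was the gene whose groups did not overlap in this comparison. It had 142, 154 and 162 CPM in wild-type replicates 1, 2 and 3, and 139, 140 and 133 CPM in R264W/R264W replicates. The WT/R264W testes had 143, 131 and 164 CPM. In TMM-scaled CPM every R264W/R264W value was below every wild-type value, while the WT/R264W testes overlapped both. The gap was narrow, from 140 to 142 CPM. In FPKM the R264W/R264W and wild-type groups overlapped. Wild-type replicate 1 had 27.83 FPKM, below R264W/R264W replicates 1 and 2 with 29.92 and 29.9 FPKM. The log2 fold change of R264W/R264W against wild-type was -0.15 (standard error 0.073, 95% interval -0.32 to 0.03, edgeR adjusted p = 1). An exact permutation test on the TMM-scaled CPM gave p = 0.1, the smallest that 3 against 3 allows. In 1 of 10 genes the groups did not overlap, beside 5.68% of all genes.

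Trex1, a DNA exonuclease that degrades LINE-1 reverse transcripts, had the lowest value, at -0.26 (standard error 0.27, edgeR adjusted p = 1). It was -0.09 without wild-type replicate 3 and -0.20 without R264W/R264W replicate 1, where Spocd1 and Mov10 were lower, and -0.46 without wild-type replicate 1. Without wild-type replicate 3, Trim28 (-0.104) and Setdb1 (-0.0998) were lower as well. Without wild-type replicate 2, Trex1 was at -0.1985 and Morc1 was lower, at -0.2019. Trex1 had 1.63, 2.45 and 2.80 CPM in wild-type testes and 1.74, 1.83 and 2.17 CPM in R264W/R264W testes. The wild-type spread covered all R264W/R264W values. Ehmt2 was the one gene with a positive value, 0.09 (95% interval -0.31 to 0.49), and Samhd1, which lowers the pool of deoxynucleotides, was at -0.0029 (95% interval -0.32 to 0.31). The remaining values were -0.15 for Tex15, -0.15 for Spocd1, -0.12 for Morc1, -0.06 for Trim28, -0.13 for Tex19.1 and -0.16 for Mov10. Their 95% intervals ran from -0.68 at the lowest to 0.35 at the highest, both for Mov10.

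The heterozygous testes were compared with both homozygous groups, which share samples across these comparisons. Between WT/R264W and wild-type testes, 0 of the 10 genes were called by edgeR, beside 0% of 15413 genes, and DESeq2 called 0. At an unadjusted p under 0.05, 0 of the 10 passed with either tool, beside 1.11% of all genes with edgeR. Spocd1 (ENSMUSG00000028784, chromosome 4), whose product joins PIWIL4 to the methylation machinery, did not overlap. It had 4.79, 4.36 and 4.10 CPM in wild-type and 3.18, 4.08 and 3.15 CPM in WT/R264W testes, on counts of 60 to 103 per testis. The gap between the groups was narrow, from 4.08 to 4.10 CPM. The log2 fold change was -0.35 (standard error 0.19, 95% interval -0.81 to 0.10, edgeR adjusted p = 1, exact permutation p = 0.1). In R264W/R264W testes Spocd1 had 4.42, 3.38 and 4.12 CPM, which overlapped both groups. Groups did not overlap in 1 of the 10 genes, beside 5.32% of all genes.

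Between R264W/R264W and WT/R264W testes, 0 of the 10 were called by edgeR, beside 0% of 15463 genes, and 0 by DESeq2, which called 5 genes in all. None of the 10 (0) passed an unadjusted p under 0.05 with either tool, beside 2.22% of all genes with edgeR, and 0 did not overlap, beside 7.16%. Tex15 (ENSMUSG00000009628), a germ cell protein needed for piRNA-directed methylation, had the lowest value, -0.30 (standard error 0.14, 95% interval -0.64 to 0.04, adjusted p = 0.948). It had 299, 232 and 338 CPM in WT/R264W testes and 250, 239 and 217 CPM in R264W/R264W testes. WT/R264W replicate 2 lay among the R264W/R264W values, and the other WT/R264W replicates lay above them. The value was -0.17 without WT/R264W replicate 3 and -0.44 without WT/R264W replicate 2.

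The second comparison asked how the 10 genes followed the first wave, as the slope of log2 level on the stage score in a fit with genotype over all 9 testes. The score spanned 3.37 units. Genes outside the score moved with it as well, since 13 of 13 elongating spermatid genes and 13 of 15 pachytene spermatocyte genes rose. Tnp1 was at 0 in at least 1 wild-type testis and Prm2 in at least 1 WT/R264W testis. Over all genes, 2949 (18.7%) rose and 1669 (10.6%) fell with the score at an adjusted p under 0.05 in edgeR's test. Of the 10, 1 (Ehmt2) rose and 0 fell. At an unadjusted p under 0.05, 1 rose, beside 22.5% of all genes, and 3 fell (Tex15, Setdb1 and Tex19.1), beside 18.8%. The median slope was -0.08 for the 10 and -0.02 for all genes.

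Ehmt2 lies on chromosome 17, where GENCODE M21 lists 14 transcripts for it, the longest coding one with 27 exons. It had 297 CPM in the testis with the lowest score (WT/R264W replicate 3) and 305 CPM in the next (wild-type replicate 3). Rising through the scores, the other testes had 397, 344, 350, 403, 363, 476 and 394 CPM. The 2 least advanced testes were below all others, and the highest value was in R264W/R264W replicate 3, next to the most advanced. The slope was 0.15 per unit (standard error 0.038, 95% interval 0.07 to 0.23, edgeR adjusted p = 0.0114, DESeq2 adjusted p = 0.000493), a 1.41-fold rise over the range of scores. The call rested on single testes. Without wild-type replicate 3, WT/R264W replicate 3 or R264W/R264W replicate 3, the slope was 0.13, 0.14 and 0.12 and the edgeR adjusted p was 0.068, 0.0778 and 0.0523.

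Setdb1 went the other way, with 164 and 162 CPM in the 2 least advanced testes and 154, 139, 140, 131, 143, 133 and 142 CPM in the rest. Its slope was -0.07 (standard error 0.027, 95% interval -0.13 to -0.02, edgeR adjusted p = 0.0534). Tex15 had 338 and 288 CPM in the same 2 testes and 217 to 299 CPM in the others, with a slope of -0.09 (95% interval -0.17 to -0.01, adjusted p = 0.0798). A value of 299 CPM was in WT/R264W replicate 1, whose score was 5.54. Tex19.1, which promotes the turnover of the LINE-1 ORF1 protein, had 25.4 and 24.8 CPM in the least advanced testes and 16.9 and 19.9 CPM in the 2 most advanced. WT/R264W replicate 1 had 24.3 CPM of Tex19.1, near the level of the least advanced testes. The slope of Tex19.1 was -0.11 (95% interval -0.20 to -0.01, edgeR adjusted p = 0.0804). None of these 3 passed the test in the fit as designed.

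The other slopes were -0.10 for Morc1, an ATPase of germ line transposon repression (adjusted p = 0.16), 0.05 for Trim28 (0.248), -0.09 for the RNA helicase Mov10 (0.303), -0.07 for Samhd1 (0.353), -0.09 for Trex1 (0.552) and 0.05 for Spocd1 (0.643). The count depended on the scaling and on single testes. With libraries scaled by their size only, Tex15, Morc1, Setdb1 and Tex19.1 fell at slopes of -0.13, -0.14, -0.11 and -0.15, so that 4 of the 10 fell and 1 rose. The higher share of all called genes then dropped from 63.9% to 39.6%, with 2416 higher and 3692 lower of 15771. Without WT/R264W replicate 1, 6 of the 10 were called, with Tex15, Setdb1, Tex19.1 and Mov10 lower and Trim28 and Ehmt2 higher. Over all 15990 genes of that fit, 3461 were higher and 2928 lower. Without wild-type replicate 1, Ehmt2 and Samhd1 were called, Samhd1 at a slope of -0.18, beside 2034 higher and 566 lower of 15917 genes.

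**Figure D2:**
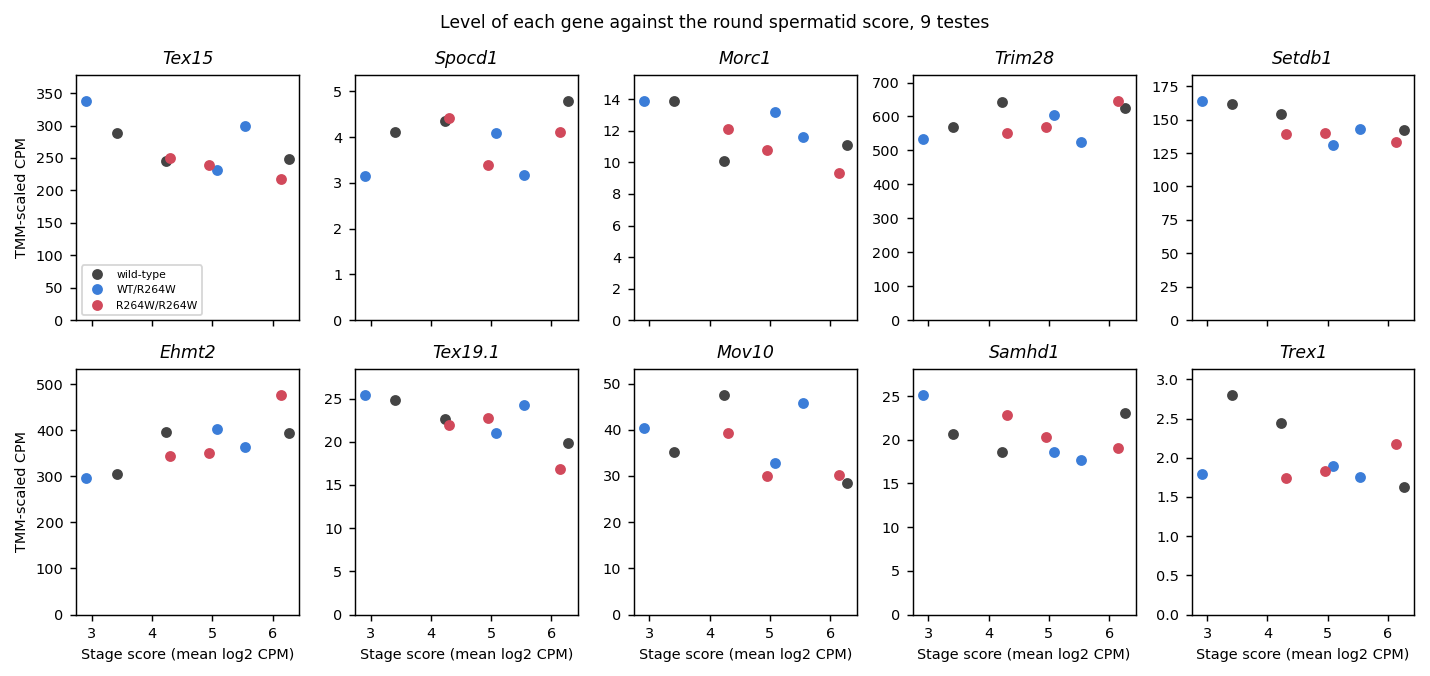
Level of each gene in TMM-scaled CPM (vertical axis, from 0) against the stage score (horizontal axis, average log2 CPM of 20 genes of round spermatids) in the 9 testes, coloured by genotype. Ehmt2 was lowest in the 2 testes with the lowest scores (297 and 305 CPM), where Setdb1 was highest (164 and 162 CPM).

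Some markers of earlier germ cells and of somatic cells also passed the test on the score, and their part in the slopes was not tested. Their counts stand beside 18.7% of all genes that rose and 10.6% that fell. Of 18 genes of early meiosis, 9 fell and 3 rose, with a median slope of -0.12. Their summed level ran from 3880 to 4510 CPM in wild-type, 3840 to 4530 CPM in WT/R264W and 3690 to 4400 CPM in R264W/R264W testes. Of 13 spermatogonial genes tested of 14 listed, 4 fell and 1 rose (median -0.11). The 14 summed to 811 to 909, 799 to 882 and 797 to 949 CPM in the 3 genotypes in that order. Of 15 Sertoli cell genes, 4 fell and 1 rose (median -0.11), with sums of 2350 to 3040, 2860 to 3450 and 2640 to 3020 CPM. Of 10 Leydig cell genes 2 rose, and of 12 macrophage genes 1 rose, with a macrophage sum of 103 to 135 CPM over all testes. No marker of these lists was at 0 in any testis.

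The start site windows of Ehmt2, Setdb1 and Tex19.1 are shown because Ehmt2 was the gene called on the score and the other 2 had opposite slopes, which were not called. Promoters of RefSeq (GRCm38.p6, 250 bases before to 50 after a start) were found for 7 of the 10 genes, 10 promoters in all. Capitals mark matches on either strand to the E-box CACGTG or the GC box GGGCGG, which is CCGCCC on the other strand.
Ehmt2 start 1 (chr17:34898224-34898523, plus strand): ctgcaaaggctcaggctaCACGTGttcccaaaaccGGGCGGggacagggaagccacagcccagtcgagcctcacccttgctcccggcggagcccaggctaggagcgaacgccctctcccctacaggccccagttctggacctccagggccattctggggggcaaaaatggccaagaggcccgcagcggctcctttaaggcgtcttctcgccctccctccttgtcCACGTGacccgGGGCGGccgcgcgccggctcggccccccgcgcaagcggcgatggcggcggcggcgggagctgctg
Ehmt2 start 2 (chr17:34898720-34899019, plus strand): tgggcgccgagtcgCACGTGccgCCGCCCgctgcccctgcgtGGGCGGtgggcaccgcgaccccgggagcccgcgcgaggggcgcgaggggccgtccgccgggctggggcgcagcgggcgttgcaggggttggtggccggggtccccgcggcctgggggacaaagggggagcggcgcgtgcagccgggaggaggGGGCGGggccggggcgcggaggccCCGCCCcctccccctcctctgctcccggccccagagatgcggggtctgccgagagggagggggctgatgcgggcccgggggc
Setdb1 (chr3:95357153-95357452, minus strand): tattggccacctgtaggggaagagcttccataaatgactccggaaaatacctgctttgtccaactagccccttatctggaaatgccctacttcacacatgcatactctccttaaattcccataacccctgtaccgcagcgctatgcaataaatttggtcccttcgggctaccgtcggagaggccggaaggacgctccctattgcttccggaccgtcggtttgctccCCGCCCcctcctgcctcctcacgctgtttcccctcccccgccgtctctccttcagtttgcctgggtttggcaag
Tex19.1 (chr11:121145893-121146192, plus strand): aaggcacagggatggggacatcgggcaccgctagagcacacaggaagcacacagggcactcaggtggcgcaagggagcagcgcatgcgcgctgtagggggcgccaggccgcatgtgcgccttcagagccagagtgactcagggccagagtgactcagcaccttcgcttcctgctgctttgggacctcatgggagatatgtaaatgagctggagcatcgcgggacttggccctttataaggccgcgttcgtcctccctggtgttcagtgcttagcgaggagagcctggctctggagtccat

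The E-box, bound by basic helix-loop-helix factors, was in both Ehmt2 promoters and in 0 of the 8 promoters of the other 6 genes, while 7.15% of all 32851 promoters held it. In the first Ehmt2 promoter its first base was at -232 and -26, with the start site counted as 1, and in the second at -236. The GC box, bound by SP1-like factors, occurred 2 times in the first and 4 times in the second Ehmt2 promoter. It occurred 1 time in the Setdb1 promoter and 0 times in the Tex19.1 promoter. Among promoters not shown, Trim28 held it 2 times, Samhd1 1 time and the second of Trex1 1 time. The first Trex1 promoter and both Mov10 promoters held it 0 times, and 35.7% of all promoters held it. The Ehmt2 promoters held 28 and 40 CpG sites, Setdb1 15 and Tex19.1 16, against a median of 7. An E2F site (GCGGGAA), a MYB core (TAACNG) and an interferon response element core (GAAANNGAA) were also searched on both strands, and 4.60%, 23.3% and 8.56% of all promoters held them. None of these 3 was in the 4 windows shown, and no matches overlapped each other there. A match describes the letters only.

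Other genes of the same 3 pathways followed the score in both directions, to be read beside the 18.7% of all genes that rose and the 10.6% that fell. Of 28 further genes of the piRNA pathway and DNA methylation, 3 rose and 6 fell (median slope -0.04). The 3 that rose were Dnmt3l, the cofactor of de novo methylation, at 0.94 (standard error 0.12), Gtsf1, a cofactor of PIWI proteins, at 0.20, and Mael, a piRNA pathway protein, at 0.11. Dnmt3l went from 0.525 CPM in the testis with the lowest score to 4.47 CPM in that with the highest. The counts are per gene and do not show which Dnmt3l transcripts rose. Hells, a chromatin remodeller of DNA methylation, fell with a slope of -0.20, the de novo methyltransferase Dnmt3a with -0.16 and the histone reader Spin1 with -0.14.

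Of 26 further genes of H3K9 methylation and corepression, 4 rose and 7 fell (median -0.05), beside 18.7% and 10.6% of all genes. The 2 SUV39 methyltransferases moved in opposite directions. Suv39h2 rose with a slope of 0.25, from 24.5 CPM at the lowest score to 40.7 CPM at the highest, and Suv39h1 fell with -0.18, from 36.1 to 23.0 CPM. The chromatin assembly subunit Chaf1a (0.13) and the histone chaperone Daxx (0.08) rose, while the remodeller Smarcad1 and Resf1, a partner of SETDB1, each fell with -0.15. With libraries scaled by size only, Daxx was not called (slope 0.04, adjusted p = 0.219). In that scaling the lists had 3 higher and 12 lower of 28, 2 higher and 11 lower of 26, and 2 higher and 7 lower of 18. These stand beside 2416 higher and 3692 lower of all 15771 genes in that scaling, where the median slope of all genes was -0.06.

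Of 18 further genes of LINE-1 restriction, 2 rose and 5 fell (median -0.09), beside the same 18.7% and 10.6%. Isg20, an RNA exonuclease, rose with a slope of 1.04 (standard error 0.085), from 1.73 CPM at the lowest score to 14.3 CPM at the highest. Rnaseh2a, the catalytic subunit of RNase H2, rose with 0.18. The RNA nuclease Dicer1 fell with -0.15 and the RNA editing enzyme Adar with -0.13. Adjusted p-values of all genes named from the 3 lists lay between 4.55e-07 and 0.0395 (edgeR). In the 3 genotype comparisons, 0 genes of the 3 lists were called. Of 19 interferon response genes tested, 1 rose and 3 fell with the score (median -0.06).

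**Figure D3:**
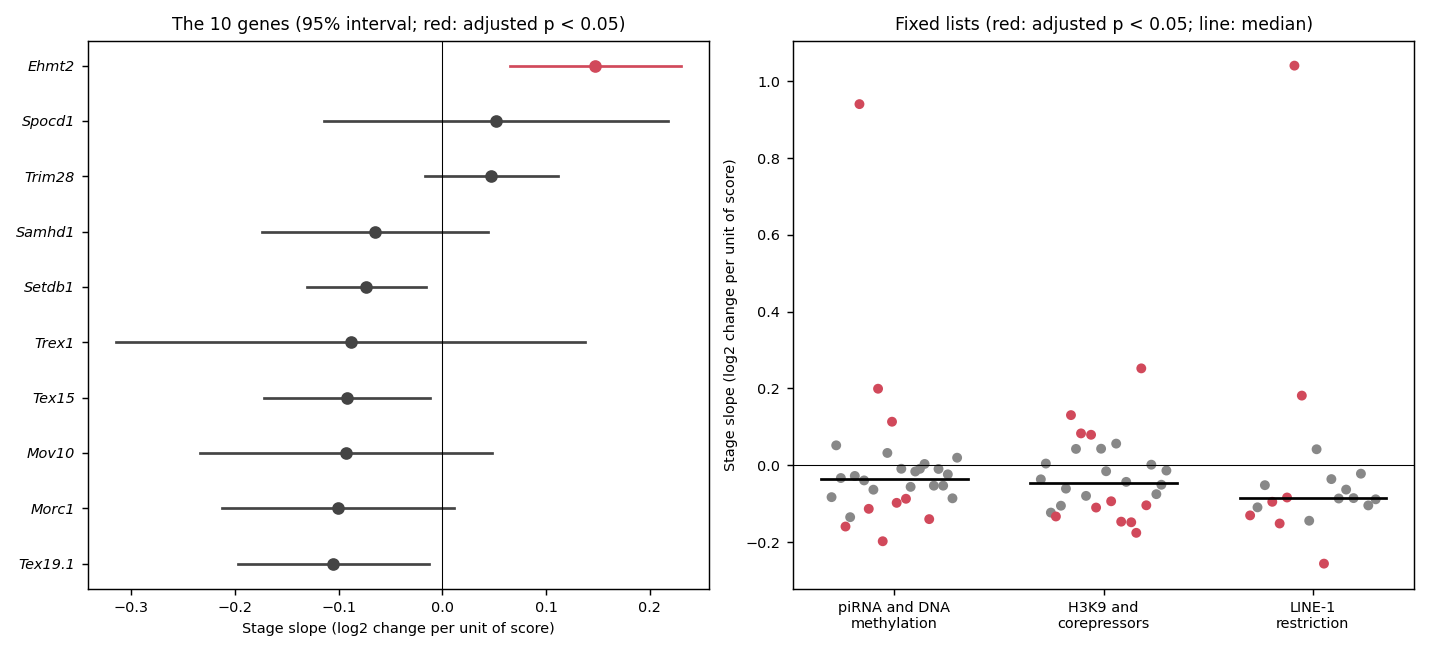
Left, stage slope (horizontal axis, log2 change per unit of score) of each of the 10 genes with its 95% interval, in red where the adjusted p was under 0.05, which was Ehmt2 alone. Right, stage slope (vertical axis) of every gene of the 3 pathway lists, with red for an adjusted p under 0.05 and a line at each median. Dnmt3l (0.94) and Isg20 (1.04) stand above the rest.

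The genotypes were then compared at equal stage score, with all 9 testes in 1 fit. Of the 10 genes, 0 were called by edgeR in any of the 3 comparisons, beside 0% of 15771 genes in each. DESeq2 called 0 of the 10 as well, and 20, 13 and 6 of all genes. For R264W/R264W against wild-type, 0 of the 10 passed an unadjusted p under 0.05 with either tool, beside 2.78% of all genes with edgeR. The difference for Setdb1 was -0.11 (95% interval -0.26 to 0.04) in place of -0.15, and that for Ehmt2 was 0.01 (95% interval -0.20 to 0.23) in place of 0.09. Trex1 was at -0.20 and Samhd1 at 0.02. The median of the 10 was -0.09 against -0.0069 for all genes, with 8 of 10 negative against 52.6%. For R264W/R264W against WT/R264W at equal score 5 of 10 were negative, against 50% of all genes. For WT/R264W against wild-type it was 6 of 10, against 50.7%.

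For R264W/R264W against WT/R264W at equal score, Tex15 was the 1 gene past an unadjusted p under 0.05, with edgeR and with DESeq2, beside 3.19% of all genes with edgeR. Its difference was -0.24 (standard error 0.10, 95% interval -0.46 to -0.02), with an edgeR adjusted p of 0.999. It was -0.12 without WT/R264W replicate 1 and -0.37 without WT/R264W replicate 2. With single testes left out, it stayed past an unadjusted p under 0.05 only without wild-type replicate 2, wild-type replicate 3 or WT/R264W replicate 2. For WT/R264W against wild-type, 0 passed an unadjusted p under 0.05 with either tool, beside 4.14% of all genes, and Spocd1 was at -0.34 (95% interval -0.77 to 0.09, adjusted p = 0.942). The slope on the score was also compared between R264W/R264W and wild-type testes. Of the 10, 0 differed at an adjusted p under 0.05, beside 0.00634% of all genes (1 gene, Gm28635, named after its values were seen), and 0 at an unadjusted p under 0.05 with either tool, beside 2.02%. The differences in slope ran from -0.21 for Samhd1 to 0.45 for Trex1, and that of Ehmt2 was 0.17 (95% interval -0.07 to 0.40).

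**Figure D4:**
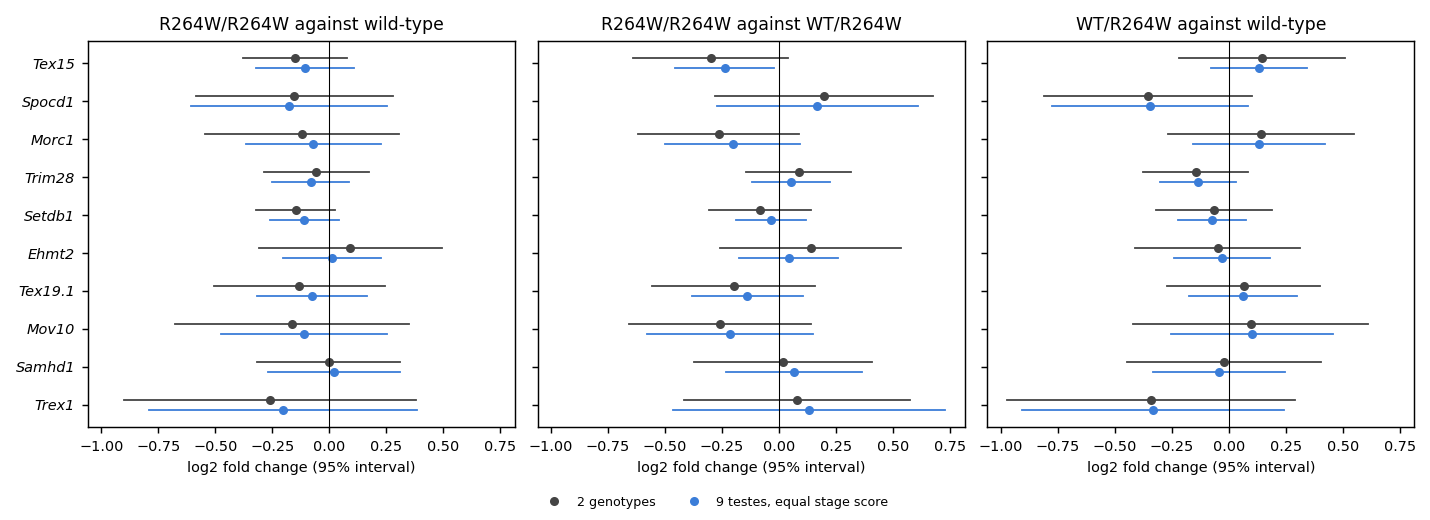
Log2 fold change (horizontal axis) of each gene in the 3 genotype comparisons, with 95% intervals, from the 6 testes of 2 genotypes (dark) and from all 9 testes at equal stage score (blue). All intervals reach across 0 except that of Tex15 in R264W/R264W against WT/R264W at equal stage score (-0.46 to -0.02).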

How the data were processed

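The authors filtered the reads with fastp (0.18.0) and assembled them with StringTie (1.3.1), per the labels, whose processing notes name the build mm39 and DESeq2. The aligner and annotation are not given in the sources used here. They deposited an FPKM value, scaled for length and depth, and an estimated count per gene and testis, not scaled, of which 89.2% were whole. Samples were grouped by their genotype labels.

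Estimated counts were rounded. In R (4.3.3), edgeR (4.0.16) was run with filterByExpr, TMM scaling and the two-sided quasi-likelihood test, with Benjamini-Hochberg adjustment over all genes tested, and checked on simulated data. In that check, most genes given a change between R264W/R264W and wild-type testes were not called, at the sizes tried. A gene that was not called may therefore still have changed. Genotypes were fitted by pairs, and the stage score over all 9 testes. For single genes an exact permutation test (two-sided) was added. Alternatives were DESeq2 (1.42.0), other scalings, filters and scores, limma (3.58.1) on log2(FPKM + 0.1) and log2(FPKM + 1) for genes that averaged 0.5 FPKM or more, a replicate block and each testis left out. The 10 genes and the lists were chosen with earlier results of these data known. From each pathway list, up to 3 genes with the largest called slopes in each direction were named, except for 1 item that is not reported here. Totals of 18.0 to 24.3 M counts give the depth, and counting error covers no other source. Gene models are from GENCODE M21 (GRCm38), whose build differs from that of the table.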

Additional observations from a re-analysis of the deposited data

How the results depend on the processing

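The number of the 10 genes called on the stage score, 1 in the fit reported, was 5 with library size only, 4 with limma on log2(FPKM + 0.1) and 4 with log2(FPKM + 1), 4 with a score of pachytene genes and 4 without a genotype term. More of all genes were called in these settings too. In the same order, the calls were 6108 of 15771, 5110 of 14154, 5048 of 14154, 5134 of 15771 and 5381 of 15771, beside 4618 of 15771 in the fit reported. The cause was not tested. The number called of the 10 ran from 0 to 6 when each testis was left out in turn. The count over all genes, 4618 in all, ran from 2600 (without wild-type replicate 1) to 6389 (without WT/R264W replicate 1), with 2800 without wild-type replicate 3 and 3059 without R264W/R264W replicate 3. The share of called genes that were higher was 63.9%, and 43.7% and 44% with limma.

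Of 578 values recomputed for single genes, 531 kept their direction and their side of the threshold, 22 reversed, 22 passed the threshold and 3 no longer passed it, all 3 for Ehmt2 on the score. For R264W/R264W against wild-type, Samhd1 turned positive at 0.0072 with DESeq2, 0.0069 with its size factors, 0.0066 with library size only and 0.005 with at least 10 counts in every library. Leaving out single testes gave ranges that crossed 0 for Samhd1 (-0.0745 to 0.0805), Mov10 (-0.318 to 0.0699), Morc1 (-0.210 to 0.0283) and Ehmt2 (-0.0776 to 0.175) in that comparison, for Ehmt2 (-0.11 to 0.11) and Samhd1 (-0.0635 to 0.307) at equal score, for the slopes of Trex1 (-0.157 to 0.0401) and Samhd1 (-0.18 to 0.0066), and for the slope differences of Ehmt2 (-0.19 to 0.27) and Samhd1 (-0.330 to 0.0439). None of the genotype comparisons called any of the 10 under the alternatives run.

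Deviations of samples with the same replicate number correlated between -0.734 and 0.784, over 0.1 in 2 of 9 pairs, both of them wild-type with WT/R264W, so the numbers were not taken to pair the samples. The labels do not say what a number marks. With the replicate block, 1 of the 10 was called on the score, with 3979 of all genes, and 0 in the genotype comparisons. Low counts limit Trex1 and Spocd1, with at most 57.5 and 103 counts in a testis.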
